A study of Mus musculus with 33 samples.

Results

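The genes described here are 10 mouse genes grouped under the name formative and primed epiblast genes: Fgf4, Fgf5, Otx2, Pou3f1, Utf1, Zic2, Zic5, Sall2, Lin28a and Lin28b. They were chosen by name, with earlier results of these data known, and are 10 of the 37991 genes counted. Their rows were read in 33 RNA-seq libraries of E14TG2a, a mouse embryonic stem cell (mESC) line, in order to ask whether embryoid bodies (EBs) made from cells without a DNA repair enzyme hold an epiblast-like state. The enzymes were Neil1 and Neil2, DNA glycosylases that remove oxidised bases, and Apex1, the endonuclease that cuts at the abasic site left behind. Clones carried a CRISPR/Cas9 deletion of active-site coding sequence of 1 of these genes, and the controls, labelled wild-type, were clones that had received the empty vector; all had passed through transfection and puromycin selection. Each of the control (#1, #4, #7), Neil1 (#7, #9, #11) and Neil2 (#1, #11, #14) genotypes had 3 clones, whereas the Apex1 libraries were technical duplicates of 1 clone (#46) and count as 1 sample. Every genotype was profiled as mESCs kept in LIF and serum, as EBs at day 8, and as EBs + RA, which received 5 µM retinoic acid from day 4 and were harvested at day 8. EBs and EBs + RA of a clone were parts of one culture separated at day 4.

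The epiblast of the mouse embryo passes from a naive state, which mESCs in LIF resemble, through a formative state into the primed state that precedes gastrulation. FGF4, secreted by naive cells, signals through its receptors to ERK and moves cells out of the naive state, and Fgf5 is the classical marker of the epiblast that results. OTX2 and POU3F1 (OCT6) are transcription factors of formative cells, OTX2 redirects OCT4 to formative enhancers, ZIC2 and ZIC5 are zinc-finger factors of epiblast and neural plate, UTF1 is a chromatin-bound pluripotency protein, and SALL2 is a zinc-finger factor of the SALL family found mainly in neural tissue. LIN28A and LIN28B bind precursors of the microRNA let-7 and block their maturation. Retinoic acid drives EBs towards neural fates.

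Textbook cis-elements tie some of these genes to pluripotency factors, and such an element is shown for the genes that hold it. Its part in the levels of these genes was not tested. A SOX-OCT composite (CNTTGT, then ATGCNA after 0 to 4 bases, on either strand) was searched in the 2000 bases centred on each annotated gene end of the NCBIM37 genome. It occurred at 2 of the 10 genes and at 432 of 22334 protein-coding gene ends (1.93%). The letters and spacing were chosen to cover elements already known at these genes, so the matches are descriptions. At Fgf4 the match lies at chr7:152050292-152050321 on the plus strand, inside the last exon and 849 bases before the gene end, and at Utf1 it lies at chr7:147131574-147131603, read here from the minus strand, 571 bases past the gene end. Capitals mark the match.
Fgf4: gaaaactCTTTGTTTGGATGCTAatgggat
Utf1: atgagccgtCATTGTTATGCTAgtgaagtg

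The LIN28 genes are themselves known let-7 targets, and both carry several matches to the let-7 seed. The mature let-7a-5p (RefSeq, GRCm38.p6) is printed below with its seed in capitals; 9 of 10 let-7 names in the table carry the same seed. The complementary site CTACCTC was found in the longest annotated 3′ UTR of 1761 of 20007 genes (8.80%) and in 20.0% of the 4509 genes with a 3′ UTR of at least 2000 bases. Lin28b held 4 sites in 4445 bases, Lin28a held 2 in 2775 bases, Fgf4 held 1 in 2302 bases, and the remaining 7 genes held none. The first site of each gene is shown with the site in capitals. No microRNA was measured.
let-7a-5p: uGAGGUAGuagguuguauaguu
Lin28a: gagtgcacagcctgttgaaCTACCTCattt
Lin28b: cttcacccgggcgggaagtCTACCTCatgc
Fgf4: gaaggaattctatccccatCTACCTCagag

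All 10 genes lie on autosomes. In NCBIM37 coordinates Fgf4 is at chr7:152047291-152051148, Utf1 at chr7:147129688-147131011, Fgf5 at chr5:98683203-98706049, Otx2 at chr14:49277354-49287319, Sall2 at chr14:52930847-52948437, Lin28a at chr4:133559245-133574756 and Lin28b at chr10:45096426-45206201. Zic5 (chr14:122856017-122864899) and Zic2 (chr14:122874604-122879074) are neighbours transcribed away from each other. Pou3f1 (chr4:124334896-124337899) could not be read from these counts, with between 0 and 8 counts in any library. In the annotation used here, 3003 of its 3004 exon bases are shared with a second model of the same name and strand. Reads on shared bases would be set aside as ambiguous, and such a loss could not be told apart from low expression. It was tested in no comparison, and 9 genes remain. Lin28a shares 103 of 3505 exon bases with Gm13061 on the other strand, and the library kit does not mark strand.

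Libraries held 21523742 to 48350904 counts on genes (median 26720028). CPM values below are counts scaled by library totals after adjustment with edgeR's TMM factors, not by the raw totals alone. They suit comparisons of 1 gene between samples. Levels of different genes are compared per kilobase (RPKM), from the same scaled values. The rows of the mutated genes could not check the labels, since gene counts include exons outside the deletion. The Neil1 row gave 1.38 to 31.6 CPM in Neil1 libraries against 5.80 to 9.85 in controls. The Neil2 row gave 4.86 to 18.0 CPM in Neil2 libraries against 3.40 to 15.2 in controls. The Apex1 row gave 56.5 to 86.2 CPM in the libraries labelled Apex1 against 7.76 to 17.8 in controls. Why a row could lie above the controls in its own mutant was not tested. The library of Neil2 EBs #1 stood apart from its group, with 992 CPM summed over Pou5f1, Sox2 and Sall4 where the highest Neil2 EB library had 1676, and so did control EBs + RA #7 for several genes. Results that rest on them are given with and without them. All samples are bulk RNA, in which fewer cells of a type and less RNA per cell cannot be told apart.

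Control clones first, for what the genes do without a mutation. Called means an adjusted p below 0.1 over all genes tested and a log2 fold change beyond 0.5. From mESCs to EBs, 4 of the 9 genes rose (17% of all genes tested rose) and 1 fell (18.3% of all genes). Fgf5 rose from 0.293, 0.606 and 0.511 CPM in the mESC clones to 21.4, 19.7 and 29.2 CPM in their EBs, a log2 change of 5.64 (SE 0.47, adjusted p = 3.54e-09). Its mESC values rest on 8 to 16 counts per library. Otx2 rose by 0.96 (SE 0.21), Sall2 by 1.71 (SE 0.24) and Lin28a by 0.55 (SE 0.21) on the log2 scale, the last call being lost without control mESCs #1 (0.42) or #4 (0.47). Fgf4 moved the other way, from 242 to 263 CPM in mESCs to 80.1 to 90.2 CPM in EBs (log2 change -1.59, SE 0.39, adjusted p = 0.00364). Zic2, Zic5, Utf1 and Lin28b passed no test, with log2 changes of 0.26, -0.39, -0.61 and 0.34.

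With retinoic acid, 7 of the 9 genes fell in the control clones (19.1% of all genes fell) and 1 rose (20.6%). Otx2 went from 48.6 to 56.4 CPM in EBs to 0.298 to 0.330 CPM in EBs + RA, which is only 8 to 10 counts per library, a log2 change of -7.42 (SE 0.31). Fgf4 fell by 6.01, Utf1 by 4.76, Fgf5 by 3.28, Lin28a by 2.00, Zic5 by 1.79 and Zic2 by 1.38 on the log2 scale. Sall2 was the exception among these genes, rising from 16.0 to 17.7 CPM to 55.5 to 66.6 CPM (log2 change 1.86, SE 0.24, adjusted p = 7.22e-07). Lin28b differed by 0.51 (SE 0.25, adjusted p = 0.109), and without control EBs + RA #7, where it stood at 30.6 CPM against 56.3 and 67.6 CPM, the difference was 0.75 and was called (adjusted p = 0.0158). The 9 genes therefore did not move as 1 group in control cells, and Sall2 and Lin28b in EBs + RA were not at their lowest. The group name does not describe each gene here: in controls Fgf4 was highest in mESCs and Sall2 in EBs + RA. The mean was also higher in mESCs than in EBs for Utf1 (227 against 148 CPM) and Zic5 (28.3 against 21.5 CPM). For Lin28b it was highest in EBs + RA (51.5 against 36.2 CPM in EBs). These further differences from EBs were not called.

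Per length, the highest of these genes in control EBs were Lin28a (124 ± 5.32 RPKM, SD, n = 3) and Utf1 (120 ± 26.6), whose ranges overlapped. Fgf4 (28.0 ± 1.68), Otx2 (15.8 ± 1.32), Zic2 (11.4 ± 1.33) and Fgf5 (9.37 ± 2.02) followed, the last pair lying within their spread. Zic5 (4.40 ± 0.288), Lin28b (3.99 ± 0.412) and Sall2 (3.15 ± 0.175) were lowest. In control EBs + RA the order changed: Lin28a (31.0 ± 4.61 RPKM) and Sall2 (11.4 ± 1.07) led, and Otx2 (0.0913 ± 0.00521) was last.

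**Figure D1:**
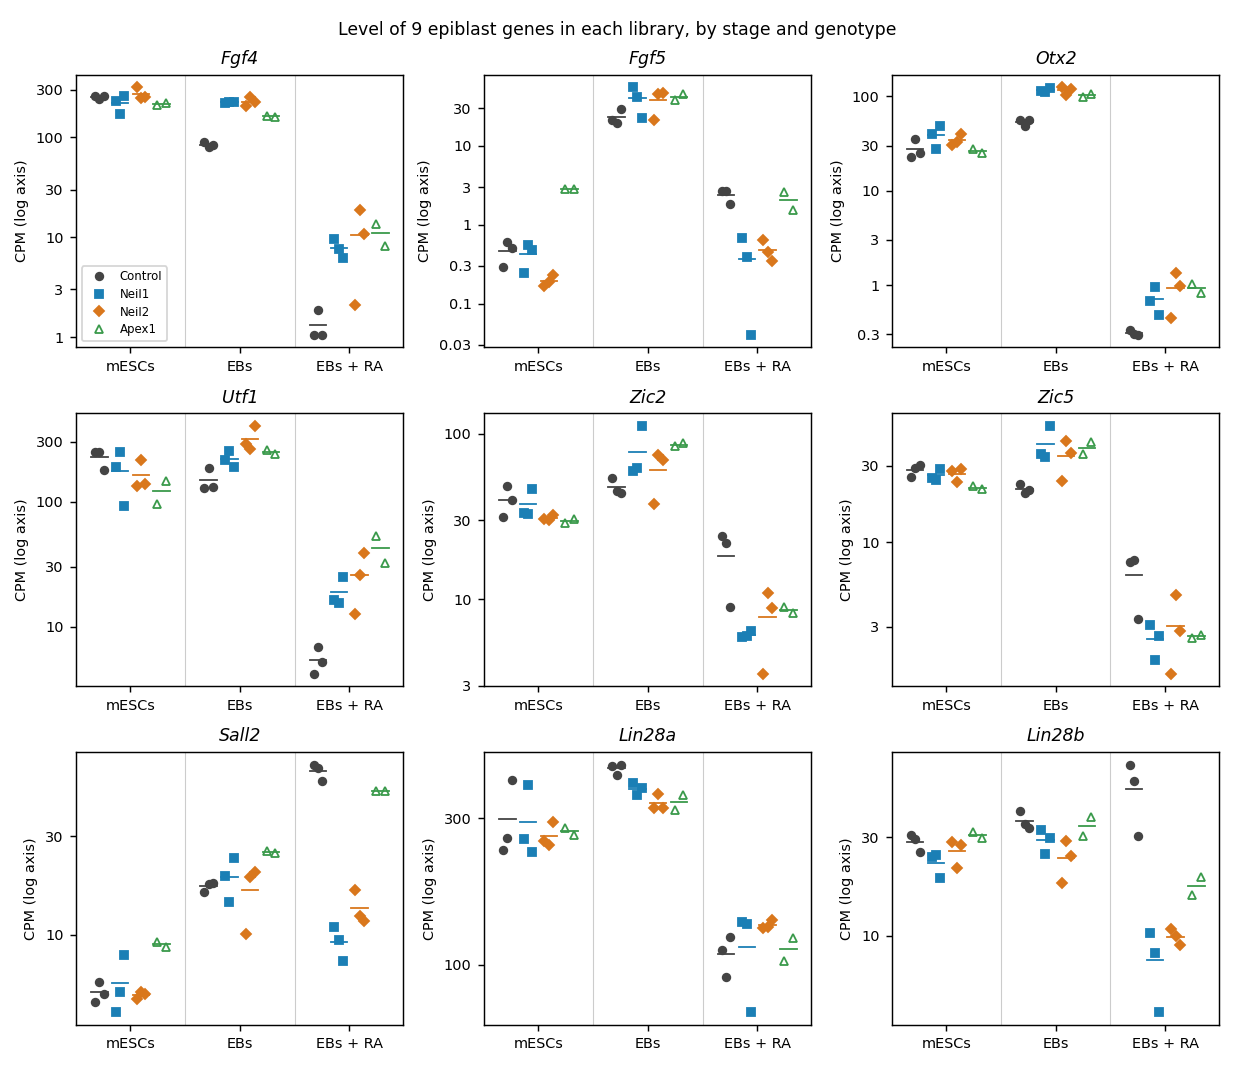
Level of 9 epiblast genes in CPM (log axis) by stage; each point is a library and each line a group mean, and the Apex1 points (open triangles) are technical duplicates of 1 clone. In EBs all mutant points of Fgf4 and Otx2 sit above the controls, and in EBs + RA the Neil1 and Neil2 points of Sall2, Lin28b and Fgf5 sit below them.

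In mESCs, Neil1 and Neil2 were close to the controls for most of these genes, and the Apex1 clone was less so. None of the 9 genes tested in Neil1 mESCs and none of the 8 tested in Neil2 mESCs, where Fgf5 was too low to test, was called by edgeR or by DESeq2 (1.82% and 1.83% of all genes were called; 2387 and 2361 genes had an unadjusted p under 0.05). Fgf4 was at 263, 242 and 261 CPM in control mESCs, 231, 172 and 259 CPM in Neil1, 321, 250 and 252 CPM in Neil2 and 212 and 219 CPM in Apex1. Otx2 was at 22.9, 35.1 and 25.0 CPM in controls, 39.9, 27.6 and 48.7 CPM in Neil1, 30.6, 32.5 and 39.4 CPM in Neil2 and 27.4 and 25.1 CPM in Apex1. Utf1 was at 251, 250 and 179 CPM in controls, 190, 249 and 92.3 CPM in Neil1, 133, 216 and 138 CPM in Neil2 and 96.4 and 146 CPM in Apex1. For Otx2 each mutant genotype overlapped the controls, and Utf1 ran lowest in Neil1 #11 and the Apex1 clone. Sall2 stood at 9.23 and 8.71 CPM in the Apex1 duplicates, above the control clones with 4.72 to 5.87 CPM and the Neil clones with at most 7.93 CPM (Apex1 against control 0.76, SE 0.32, adjusted p = 0.241). Zic2 lay between 29.0 and 48.3 CPM, Zic5 between 21.3 and 30.4 CPM, Lin28a between 233 and 398 CPM and Lin28b between 19 and 32.0 CPM over all mESC libraries. Fgf5 was called in the Apex1 clone (1.98% of all genes called): 2.83 and 2.84 CPM in the duplicates against 0.293 to 0.606 CPM in control clones, a log2 difference of 2.56 (SE 0.46, adjusted p = 0.0537). That call was lost without control mESCs #1 (2.31, adjusted p = 0.139) or #4 (2.78, adjusted p = 0.146).

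In EBs, Fgf4 and Otx2 were higher in all 3 mutant genotypes. In Neil1 EBs 5 of the 9 genes were higher and none lower (10.4% and 13.1% of all genes). In Neil2 EBs 4 were higher and 1 lower (8.65% and 7.69%), and in Apex1 EBs 2 were higher and none lower (4.12% and 4.77%). The Apex1 count depended on the fit: 7 genes were called when the summed sample was fitted with the controls alone, as Neil1 and Neil2 were, and 4 were called by DESeq2 or without a filter on low counts. All 3 comparisons used the same control libraries. The median log2 difference of the 9 genes was 0.71, 0.68 and 0.84 in Neil1, Neil2 and Apex1, beside medians of all genes of -0.00058, 0.023 and -0.0089.

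Fgf4, the ligand, showed the clearest separation in EBs. It stood at 90.2, 80.1 and 84.5 CPM in the control clones, at 222, 227 and 226 CPM in Neil1, at 206, 253 and 224 CPM in Neil2, and at 163 and 162 CPM in the Apex1 duplicates. No mutant library overlapped the controls. The log2 differences were 1.41 (SE 0.08, adjusted p = 1.44e-06), 1.44 (SE 0.13, adjusted p = 0.000444) and 0.93 (SE 0.15, adjusted p = 0.00781). The change from mESCs to EBs was 0.03 (SE 0.38, adjusted p = 0.973) in Neil1, -0.26 (SE 0.38, adjusted p = 0.667) in Neil2 and -0.41 (SE 0.67, adjusted p = 0.804) in Apex1, whose EB duplicates lay below its mESC duplicates, against -1.59 in controls. The test of that difference itself gave 1.61 (SE 0.55, adjusted p = 0.106) for Neil1, 1.32 (SE 0.55, adjusted p = 0.191) for Neil2 and 1.17 (SE 0.77, adjusted p = 0.483) for Apex1, none of which was called; by DESeq2 the Neil1 difference of 1.64 was (adjusted p = 0.0301).

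Fgf5, the epiblast marker, rose strongly in EBs of every genotype. Its EB levels were 21.4, 19.7 and 29.2 CPM in controls, 56.0, 41.7 and 22.9 CPM in Neil1, 21.3, 46.1 and 47.3 CPM in Neil2, and 38.2 and 45.8 CPM in Apex1. Neil1 #11 and Neil2 #1 fell inside the control range and all other mutant libraries lay above it. The log2 differences of 0.78 (SE 0.32, adjusted p = 0.123), 0.72 (SE 0.30, adjusted p = 0.157) and 0.84 (SE 0.46, adjusted p = 0.337) were not called. Without Neil1 #11 the first was 1.06 (adjusted p = 0.0031), and without Neil2 #1 the second was 0.99 (adjusted p = 0.00153). The rise from mESCs was 6.55 in Neil1, 7.57 in Neil2 and 3.89 in Apex1 on the log2 scale, the last from the higher mESC level of that clone.

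Otx2, the formative transcription factor, stood at 56.3, 48.6 and 56.4 CPM in control EBs, at 114, 112 and 123 CPM in Neil1, at 126, 104 and 120 CPM in Neil2 and at 97.8 and 107 CPM in Apex1. No mutant library overlapped the controls, and the log2 differences were 1.11 (SE 0.09, adjusted p = 1.45e-05), 1.13 (SE 0.13, adjusted p = 0.00115) and 0.92 (SE 0.15, adjusted p = 0.00782). The Otx2 and Fgf4 calls in EBs remained in every fit that left out 1 library. Otx2 rose from mESCs to EBs in all genotypes, by 1.59 in Neil1, 1.77 in Neil2 and 1.95 in Apex1 against 0.96 in controls, differences of slope that were not called (adjusted p = 0.294, 0.126 and 0.246).

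Utf1, the chromatin protein, was higher in Neil1 and Neil2 EBs. Controls gave 128, 185 and 130 CPM, Neil1 214, 253 and 187 CPM, Neil2 289, 261 and 403 CPM, and Apex1 259 and 239 CPM. The lowest Neil1 library was just above the highest control, and the call in Neil1 (0.56, SE 0.16, adjusted p = 0.0301) was lost without control EBs #1 (0.47), control EBs #7 (0.47) or Neil1 EBs #9 (0.44). The difference in Neil2 was 1.12 (SE 0.20, adjusted p = 0.00946) and in Apex1 0.75 (SE 0.26, adjusted p = 0.124). From mESCs to EBs Utf1 rose by 0.97 in Neil2 while controls gave -0.61, and this difference was called (1.58, SE 0.49, adjusted p = 0.0693), although 7 of 12 fits without 1 library lost the call.

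The neighbouring Zic genes were both higher in Neil1 EBs, and Zic5 alone was called in Neil2. Zic5 was at 23.0, 20.2 and 21.3 CPM in controls, 35.1, 34.1 and 52.9 CPM in Neil1, 24.1, 42.7 and 36.1 CPM in Neil2 and 35.4 and 42.1 CPM in Apex1, so that no mutant library overlapped the controls. Its log2 differences were 0.92 (SE 0.17, adjusted p = 0.00252), 0.68 (SE 0.21, adjusted p = 0.066) and 0.85 (SE 0.29, adjusted p = 0.117), and 5 of 6 fits without 1 library lost the call in Neil2, where values ran from 0.49 to 0.87. Zic2 was at 54.0, 45.1 and 43.7 CPM in controls, 59.6, 62.2 and 112 CPM in Neil1, 37.7, 74.1 and 69.1 CPM in Neil2 and 84.0 and 87.8 CPM in Apex1. Neil1 #11 carried much of its difference (0.71, SE 0.24, adjusted p = 0.066), which was 0.36 without that library and no longer called; the call was also lost without control EBs #4 (0.66) or #7 (0.65). In Neil2 the difference was 0.35 (adjusted p = 0.391), and 0.58 without the #1 library (adjusted p = 0.00648). Sall2 stood at 16.0 to 17.7 CPM in control EBs and 10.1 to 25.3 CPM in the mutants, with log2 differences of 0.15, -0.06 and 0.55 that were not called.

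The LIN28 genes were not higher in mutant EBs. Lin28a was at 444, 414 and 448 CPM in controls, 389, 356 and 375 CPM in Neil1, 324, 359 and 324 CPM in Neil2 and 320 and 357 CPM in Apex1. All 8 mutant libraries lay below the controls, but the differences of -0.22 (adjusted p = 0.0546), -0.36 (adjusted p = 0.085) and -0.36 (adjusted p = 0.201) did not reach the fold limit. Lin28b was at 40.4, 34.7 and 33.4 CPM in controls, 32.4, 24.8 and 29.9 CPM in Neil1, 17.9, 28.9 and 24.3 CPM in Neil2 and 30.3 and 37.5 CPM in Apex1. Its difference in Neil2 (-0.60, SE 0.19, adjusted p = 0.0761) was called, a call that only 1 of 6 fits without 1 library kept, with -0.45 without the #1 library.

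**Figure D2:**
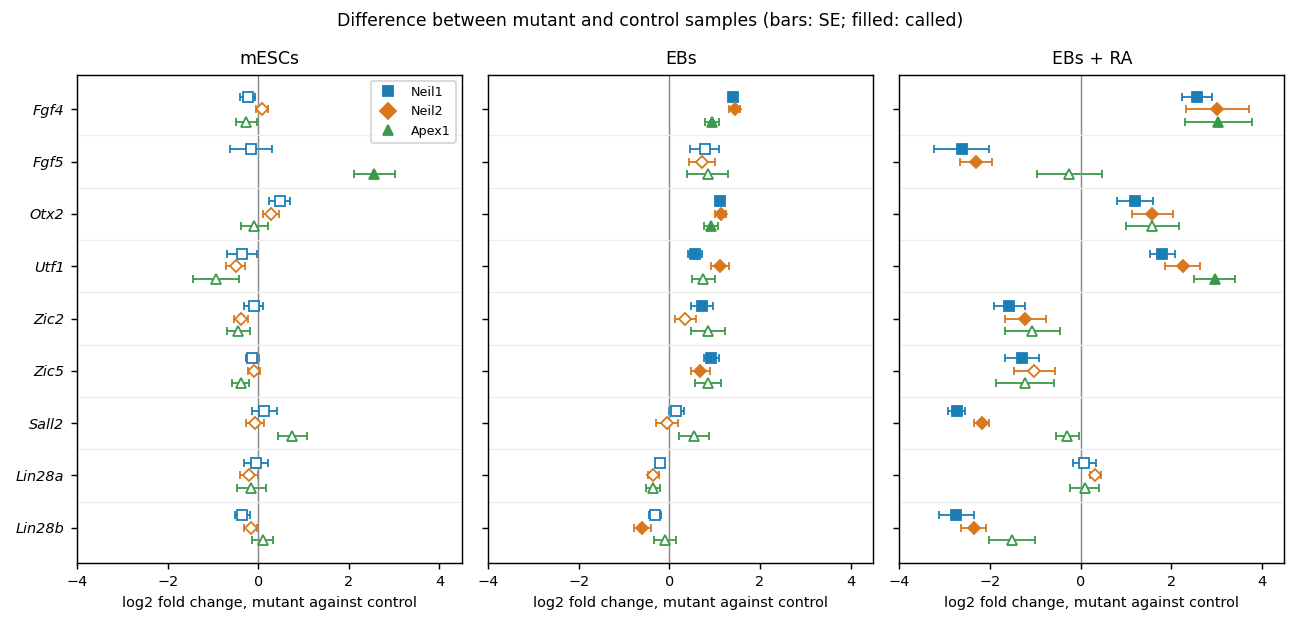
Log2 difference between mutant and control for the 9 genes at each stage, with bars for the SE and filled symbols for called differences; colours give the genotype. In EBs the called differences of Fgf4 and Otx2 are above 0 in all 3 genotypes, and in EBs + RA Fgf4 and Utf1 remain above 0 while Sall2, Lin28b and Fgf5 are below 0 in Neil1 and Neil2.

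Under retinoic acid the genes divided. In Neil1 EBs + RA 3 of the 9 genes were higher and 5 lower than in controls (21.2% and 19.9% of all genes), in Neil2 3 were higher and 4 lower (18.3% and 16.6%), and in the Apex1 clone 2 were higher and none lower (4.97% and 2.25%). The genes that were higher were Fgf4, Utf1 and Otx2, which retinoic acid brought down furthest in controls. The genes that were lower included both that did not fall in controls, Sall2 and Lin28b, together with Fgf5 and Zic2 in both genotypes and Zic5 in Neil1. The medians of the 9 genes were -1.29, -1.02 and -0.25 in Neil1, Neil2 and Apex1, beside 0.0015, 0.0047 and -0.011 for all genes.

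Fgf4 was at 1.06, 1.85 and 1.06 CPM in control EBs + RA, at 9.60, 7.57 and 6.18 CPM in Neil1, at 2.1, 18.7 and 10.8 CPM in Neil2 and at 13.7 and 8.15 CPM in Apex1. All mutant libraries lay above the controls, the lowest of them being Neil2 #1. The log2 differences were 2.57 (SE 0.33, adjusted p = 0.00105), 3.01 (SE 0.70, adjusted p = 0.013) and 3.04 (SE 0.74, adjusted p = 0.0484). The Neil2 value was 3.50 without Neil2 EBs + RA #1 and 2.30 without #11, and the Apex1 call was lost without any 1 of the controls (adjusted p = 0.10 to 0.198). Even so, Fgf4 in mutant EBs + RA was far below its level in EBs, 162 to 253 CPM.

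Utf1 stood at 4.23, 6.86 and 5.27 CPM in controls, 16.3, 15.4 and 25.0 CPM in Neil1, 12.6, 26 and 38.5 CPM in Neil2 and 53.2 and 32.2 CPM in Apex1. Every mutant library lay above the controls, and the log2 differences were 1.80 (SE 0.27, adjusted p = 0.00217), 2.25 (SE 0.39, adjusted p = 0.00393) and 2.96 (SE 0.45, adjusted p = 0.0136), each called in all fits without 1 library. Otx2 was at 0.330, 0.302 and 0.298 CPM in controls, 0.681, 0.965 and 0.485 CPM in Neil1, 0.450, 1.34 and 0.973 CPM in Neil2 and 1.03 and 0.829 CPM in Apex1. These values rest on 8 to 42 counts per library. The differences of 1.20 (SE 0.39, adjusted p = 0.0441) in Neil1 and 1.58 (SE 0.45, adjusted p = 0.029) in Neil2 were called; the first was lost without Neil1 #9 (0.92) or control #1 (1.24) or #4 (1.17), the second without Neil2 #11 (1.21). In Apex1 it was 1.58 (adjusted p = 0.165).

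Sall2, which rose with retinoic acid in controls, did not reach that level in Neil1 and Neil2. It was at 66.6, 64.0 and 55.5 CPM in controls, 10.9, 9.43 and 7.43 CPM in Neil1, 16.4, 12.3 and 11.6 CPM in Neil2 and 49.5 CPM in both Apex1 duplicates. The Neil1 and Neil2 libraries were all far below the controls and the Apex1 clone just under them. The differences were -2.73 (SE 0.18, adjusted p = 9.48e-05), -2.19 (SE 0.17, adjusted p = 0.000248) and -0.29 (SE 0.26, adjusted p = 0.605). In Neil1 the EB + RA levels were also below the 14.3 to 23.4 CPM of the same genotype without retinoic acid.

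Lin28b was lower in Neil1 and Neil2 as well. It was at 67.6, 56.3 and 30.6 CPM in controls, 10.3, 8.25 and 4.24 CPM in Neil1, 10.8, 9.95 and 9.00 CPM in Neil2 and 15.7 and 19.2 CPM in Apex1, with every mutant library below the controls. The differences were -2.74 (SE 0.39, adjusted p = 0.00175), -2.36 (SE 0.28, adjusted p = 0.000904) and -1.51 (SE 0.50, adjusted p = 0.126), the last being called without control #7 (-1.79, adjusted p = 0.0447). Lin28a, its paralogue, was called in none: it was at 111, 91.5 and 124 CPM in controls, 138, 136 and 70.0 CPM in Neil1, 131, 132 and 140 CPM in Neil2 and 103 and 122 CPM in Apex1. All 3 Neil2 libraries lay above the controls, and the other genotypes overlapped them. Its differences were 0.08 (SE 0.26, adjusted p = 0.82) in Neil1, 0.33 (SE 0.13, adjusted p = 0.0817) in Neil2, under the fold limit, and 0.09 (SE 0.32, adjusted p = 0.915) in Apex1.

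Fgf5 was at 2.68, 2.71 and 1.85 CPM in controls, 0.681, 0.393 and 0.0404 CPM in Neil1, 0.638, 0.446 and 0.347 CPM in Neil2 and 2.57 and 1.52 CPM in Apex1. The Neil1 value of 0.0404 CPM was 1 count. Neil1 and Neil2 lay below every control, by a log2 difference of -2.63 (SE 0.61, adjusted p = 0.0128), which was -3.40 without Neil1 EBs + RA #7, and of -2.31 (SE 0.35, adjusted p = 0.00234). Apex1 overlapped the controls (-0.25, adjusted p = 0.895).

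Zic2 was at 24.2, 21.9 and 9.04 CPM in controls, 5.95, 6.00 and 6.42 CPM in Neil1, 3.56, 10.9 and 8.89 CPM in Neil2 and 8.99 and 8.22 CPM in Apex1. Control #7 overlapped Neil2. The differences were -1.57 (SE 0.35, adjusted p = 0.01) in Neil1, -1.22 (SE 0.46, adjusted p = 0.0747) in Neil2 and -1.07 (adjusted p = 0.38) in Apex1, and the Neil2 call was lost in 4 of 6 fits without 1 library, with values from -0.87 to -1.55. Zic5 was at 7.60, 7.80 and 3.35 CPM in controls, 3.10, 1.86 and 2.63 CPM in Neil1, 1.54, 4.72 and 2.81 CPM in Neil2 and 2.57 and 2.66 CPM in Apex1. It was lower in Neil1 (-1.29, SE 0.38, adjusted p = 0.0286; lost without control #1, -1.14, or #4, -1.12), and its differences of -1.02 (adjusted p = 0.119) in Neil2 and -1.22 (adjusted p = 0.341) in Apex1 were not called. The Neil2 difference was called without control #7 (-1.33, adjusted p = 0.0396) or without Neil2 #11 (-1.50, adjusted p = 0.0545).

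Whether the response to retinoic acid itself differed was tested as (mutant EBs + RA minus mutant EBs) minus the same in controls. For Neil1, 6 of the 9 genes were called (25% of all genes in either direction), for Neil2 5 (14%) and for Apex1 1 (2.49%). In Neil1, this log2 difference of responses was -3.40 for Fgf5, -2.30 for Zic2 and -2.22 for Zic5, which fell in controls, -2.90 for Sall2, which rose in controls, and -2.44 for Lin28b, whose difference of 0.51 there was not called. For Utf1 it was 1.23, a call that 8 of 12 fits without 1 library lost. In Neil2 it was -3.04 for Fgf5, -2.14 for Sall2, -1.77 for Lin28b, -1.71 for Zic5 and -1.57 for Zic2, the last lost in 4 of 12 fits. In Apex1 it was -2.10 for Zic5 (adjusted p = 0.089), lost in 7 of 10 fits. Otx2 (0.08 and 0.46) and Lin28a (0.29 and 0.68) did not pass in Neil1 and Neil2; with the clone as a block, Lin28a in Neil2 did (0.69, adjusted p = 0.0877). For Fgf4 the response differed by 1.16 (SE 0.60, adjusted p = 0.187) in Neil1 and 1.58 (SE 0.60, adjusted p = 0.105) in Neil2, and the latter ran from 0.88 without Neil2 EBs + RA #11 (adjusted p = 0.332) to 2.07 without #1 (adjusted p = 6.4e-05).

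**Figure D3:**
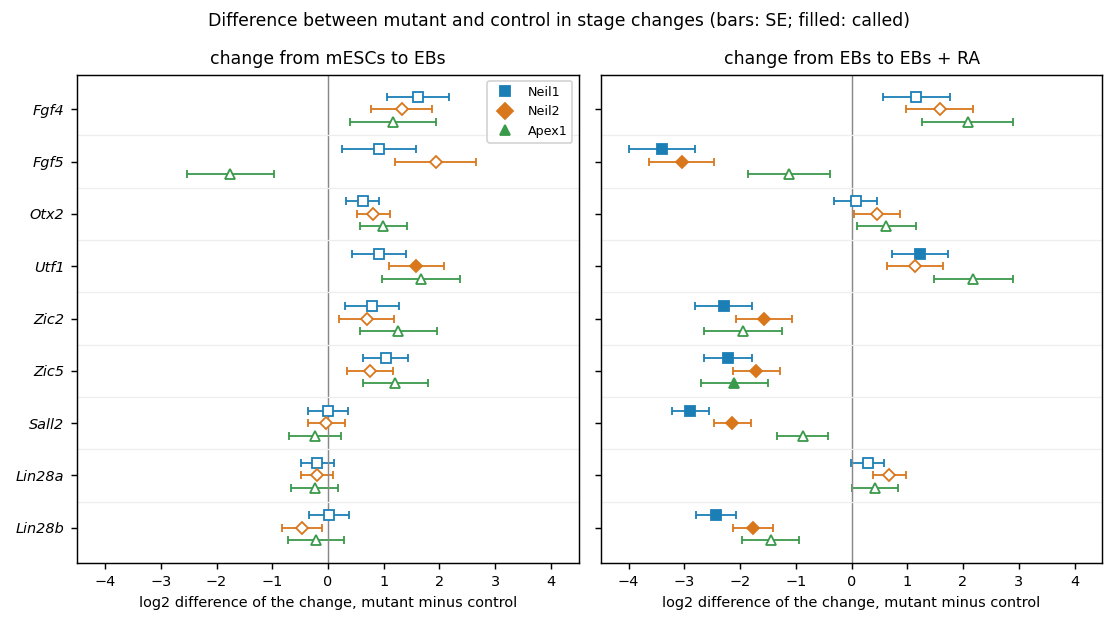
Log2 difference between mutant and control in the change from mESCs to EBs (left) and from EBs to EBs + RA (right), with bars for the SE and filled symbols for called differences. On the left only Utf1 in Neil2 is called (1.58), and on the right the points of Fgf5, Zic2, Zic5, Sall2 and Lin28b are below 0 in all 3 genotypes.

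The change from mESCs to EBs was called for 4 genes in Neil1 (24.6% of all genes called), 5 in Neil2 (25.3%) and 3 in Apex1 (5.44%). Fgf5, Otx2 and Sall2 were among them in every genotype, Sall2 with almost the same size throughout (1.71, 1.71, 1.68 and 1.48 in control, Neil1, Neil2 and Apex1). Zic2 rose by 1.05 (adjusted p = 0.0315) in Neil1 and 0.95 (adjusted p = 0.0501) in Neil2, calls that 3 and 5 of 6 fits without 1 library lost, and Utf1 in Neil2, above, lost its call in 3 of 6. With the clone as a block, Zic5 in Neil1 (0.62, adjusted p = 0.098) and Zic2 in Apex1 (1.52, adjusted p = 0.0888) were called as well. Between mutant and control the change differed for none of the 9 genes in Neil1 (7.08% of all genes, 3053 genes with an unadjusted p under 0.05) or Apex1 (3.78%, 2992 genes) and for Utf1 in Neil2 (7.71%), as the plot of stage changes shows. By DESeq2 there was 1 gene in Neil1, 4 in Neil2 and 0 in Apex1.

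The other genes of these pathways were read from lists written with earlier results known. Their counts stand beside the shares of all genes called higher and lower, which were 10.4% and 13.1% in Neil1, 8.65% and 7.69% in Neil2 and 4.12% and 4.77% in Apex1 EBs, and 21.2% and 19.9%, 18.3% and 16.6%, and 4.97% and 2.25% in EBs + RA. Naive pluripotency genes were higher in EBs: 10 of 12 in Neil1, 8 in Neil2 and 4 in Apex1, where Tbx3 was lower. In Neil1 EBs Nr0b1 (1.85) and Tcl1 (1.32) had the largest log2 differences. In EBs + RA, 11, 10 and 10 of 12 were higher. Of the core factors Pou5f1, which encodes OCT4, was higher in EBs by 0.92, 0.72 and 0.90 and in EBs + RA by 1.85, 2.42 and 3.16 in Neil1, Neil2 and Apex1. Sox2 was higher in EBs (0.74, 0.80 and 0.79) and lower in Neil1 EBs + RA (-1.08).

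Among 16 other formative and primed epiblast genes the directions were mixed. In EBs 5 were higher and 4 lower in Neil1, 2 and 2 in Neil2, and 3 and 2 in Apex1; in EBs + RA it was 7 and 6, 9 and 6, and 4 and 2. Lefty2, a secreted inhibitor of Nodal, and Nodal itself had log2 differences of 1.93 and 1.55 in Neil1 EBs + RA and of 3.17 and 2.35 in Neil2. Tcf15, a transcription factor of primed cells, was higher in EBs of all 3 genotypes (1.05, 0.92 and 1.05). Cdh2, which encodes N-cadherin, was lower in EBs (-2.92, -3.16 and -2.18) and in EBs + RA (-4.28, -3.65 and -1.46), and Car14 was at -6.01 and -5.86 in Neil1 and Neil2 EBs + RA.

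The FGF pathway genes around Fgf4 and Fgf5 were counted against the same shares. Of 17 ligand, receptor and feedback genes tested in EBs, 1 was higher and 4 lower in Neil1, none and 3 in Neil2, and 1 and 2 in Apex1; of those tested in EBs + RA, 1 was higher and 9 lower of 16 in Neil1, none and 7 of 16 in Neil2, and 2 and none of 17 in Apex1. Fgf8, a ligand of the primitive streak, had log2 differences of -3.05, -3.05 and -2.19 in EBs, and Spred1, an inhibitor of the pathway, of -1.35 and -1.72 in Neil1 and Neil2. In EBs + RA Fgf15 (-3.97 and -3.31) and the feedback inhibitor Spry1 (-2.12 and -1.76) were lowest in Neil1 and Neil2.

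Of 11 genes of the LIN28 and let-7 axis, 1 in Neil1, 2 in Neil2 and 2 in Apex1 were lower in EBs, with 1 higher in Apex1 (Dicer1, 0.76); the count in Neil1 EBs was below the share of all genes. In EBs + RA 5 were lower and 1 higher in Neil1, 6 lower in Neil2, and none of them was called in Apex1. Hmga2, a known let-7 target, was at -3.30, -3.56 and -1.81 in EBs and at -2.65 and -2.40 in Neil1 and Neil2 EBs + RA. Hmga1 (-1.61, Neil1) and Mycn (-1.69, Neil2) followed in EBs + RA.

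**Figure D4:**
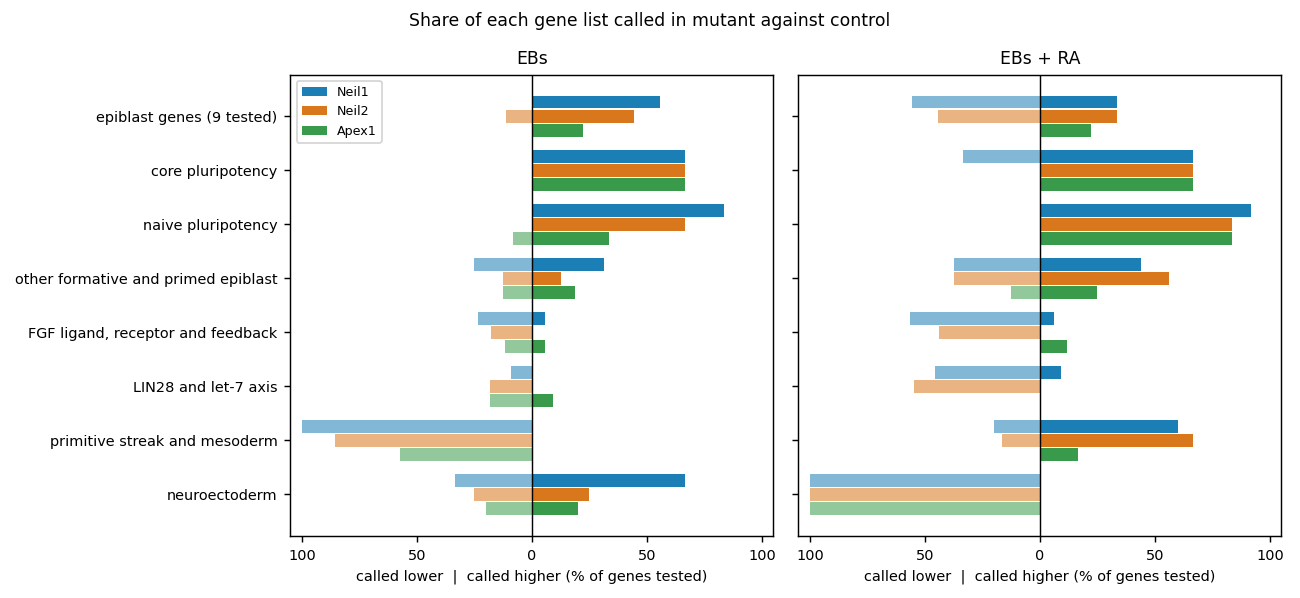
Percent of the tested genes of each list called higher (right of 0, full colour) or lower (left of 0, pale) in mutant against control, in EBs and in EBs + RA; colours give the genotype. In EBs + RA all 7 neuroectoderm genes are lower and 10 or 11 of 12 naive genes higher in each genotype, with the epiblast genes on both sides in Neil1 and Neil2.

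Lists of cell type markers were summed as well, and some share genes with the lists above. The mESC markers (Pou5f1, Nanog, Sox2, Zfp42 and Esrrb) all belong to the core and naive lists. Dppa3 is in both the naive and the germ cell list, and Foxd3 in both the other epiblast and the neural crest list. Those sums are therefore not separate from the results above. The 5 markers of undifferentiated mESCs summed to 1536 to 1590 CPM in control EBs, 2376 to 2745 in Neil1, 1795 to 2817 in Neil2 and 2631 to 2815 in Apex1, beside the higher Fgf4 and Otx2 there, and to 109 to 155, 132 to 275, 134 to 489 and 535 to 672 CPM in EBs + RA. Primitive streak and mesoderm markers summed to 368 to 479 CPM in control EBs and to 38.9 to 55.5, 43.6 to 53.6 and 125 to 146 CPM in Neil1, Neil2 and Apex1 EBs, with 7, 6 and 4 of 7 called lower. Neuroectoderm markers, which rise with retinoic acid in the controls as Sall2 did, summed to 63.1 to 63.5 CPM in control EBs, to 275 to 470 CPM in control EBs + RA and to 38.1 to 52.2, 38.7 to 48.0 and 70.0 to 75.3 CPM in the mutants, with 7 of 7 lower in each. In the Apex1 clone, where these markers were low, Sall2 was at 49.5 CPM, close to the controls. Endoderm markers summed to 299 to 589 CPM in control EBs and to 472 to 637, 160 to 780 and 73.7 to 88.5 CPM in Neil1, Neil2 and Apex1 EBs. In EBs + RA they summed to 175 to 548 CPM in controls and to 609 to 1362, 200 to 634 and 227.8 to 228.2 CPM in Neil1, Neil2 and Apex1. In EBs + RA 5 of 7 were called higher in Neil1 and 0 in Neil2. Germ cell markers summed to 40.7 to 55.6 CPM in control EBs + RA and to 96.9 to 187, 164 to 193 and 119 to 127 CPM in Neil1, Neil2 and Apex1. Trophoblast markers summed to 165 to 244 CPM in control EBs + RA and to 296 to 828, 271 to 445 and 162 to 185 CPM in Neil1, Neil2 and Apex1, with 4, 3 and 0 of 5 called higher. Neural crest markers summed to 41.5 to 68.4 CPM in control EBs + RA and to 14.3 to 16.1, 16.4 to 19.6 and 22.6 to 23.8 CPM, with 3, 3 and 2 of 6 called lower and 1 higher in Neil2, and forebrain and midbrain markers to 26.6 to 36.1 CPM and 11.8 to 14.5, 13.4 to 14.4 and 11.4 to 14.2 CPM, with 2, 2 and 1 of the 5 tested called lower and 1 higher in each of Neil1 and Neil2. The part of these marker shifts in the results for the epiblast genes was not tested.

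Profiles were also compared over the 12 group means. Fgf4 and Utf1 were alike (Pearson r = 0.965 on log2 CPM), as were Zic2 and Zic5 (0.967) and Otx2 and Lin28a (0.971), whereas Sall2 and Fgf4 ran against each other (-0.611) and Lin28a and Lin28b were less alike (0.511). Of 11455 genes, those most like each were Mybl2 for Fgf4 (0.997), Rbpms2 for Otx2 (0.984), Nphs1 for Utf1 (0.988), Fgf15 for Zic2 (0.979), Atad3a for Zic5 (0.991), Dcaf8 for Sall2 (0.972), Swap70 for Lin28a (0.977), Pdp1 for Lin28b (0.962) and Atp10a for Fgf5 (0.960). The points share libraries and stage, so these are descriptions. Genes within 2 Mb of Fgf4 had medians of -0.24, -0.19 and 0.029 in Neil1, Neil2 and Apex1 EBs, and those around Otx2 -0.0036, -0.17 and -0.17, where Fgf4 and Otx2 themselves were higher. Around Sall2 the medians in Neil1 and Neil2 EBs + RA were -0.041 and 0.048, and around Lin28b -0.47 and -0.17.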

How the data were processed

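RNA of 33 libraries was prepared with the TruSeq RNA kit, which does not mark strand. Per the labels and the study's methods, the authors aligned reads to NCBIM37 with TopHat2 2.0.9 and Bowtie2 2.1.0 and deposited raw HTSeq 0.5.4 counts per gene; the strand setting is not given in the sources used here. Rows that name no gene (no feature 5.86 to 8.85%, ambiguous 1.89 to 2.88%, not unique 11.4 to 19.9% of reads) were left out. Of 37991 identifiers 37205 were named by the annotation.

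Counts were tested with edgeR 4.0.16 in R 4.3.3 (TMM, filterByExpr, robust quasi-likelihood F-test, Benjamini-Hochberg over all genes tested). Neil1 and Neil2 were each fitted with the controls of a stage. The Apex1 duplicates were summed to 1 sample, fitted with all genotypes of the stage, and the lone sample is assumed to vary like the others. Stage changes and interactions came from 1 fit of 12 groups. Alternatives included DESeq2 1.42.0, other scalings, filters, left-out libraries and blocks. The procedure was run on simulated counts with the same spread in every library. That run cannot test the assumption made for the lone Apex1 sample.

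The 10 genes and all lists were chosen with earlier results of these data known. From each list at most 2 genes in each direction were named. They were those of largest log2 fold change among called genes whose log2 CPM averaged 2 or more. Some genes so named in 1 genotype, such as Pou5f1 and Cdh2, are also given in the others. Nr0b1, Tcl1, Dicer1, Hmga1 and Mycn are given for 1 genotype only, so their values elsewhere are not shown. For likeness, the gene with the highest Pearson r was named.

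Libraries with the same clone number at different stages come from the same clone per the labels, so the clone served as a block there. Between genotypes the numbers pair different clones. By the correlation of deviations from the group means they paired only in Neil1 EBs + RA (r = 0.27, 0.31 and 0.23).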

Additional observations from a re-analysis of the deposited data

Results flagged for a closer look

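The results below are those in which the change between stages differed between a mutant and the controls by a test of the difference itself (edgeR quasi-likelihood interaction contrast, adjusted over all genes). From mESCs to EBs it was Utf1 in Neil2 (log2 difference 1.58, adjusted p = 0.0693). From EBs to EBs + RA in Neil1 they were Fgf5 (-3.40, adjusted p = 0.000307), Sall2 (-2.90, adjusted p = 1.42e-06), Lin28b (-2.44, adjusted p = 4.79e-05), Zic2 (-2.30, adjusted p = 0.00296), Zic5 (-2.22, adjusted p = 0.00089) and Utf1 (1.23, adjusted p = 0.0942). In Neil2 they were Fgf5 (-3.04, adjusted p = 0.00114), Sall2 (-2.14, adjusted p = 8.69e-05), Lin28b (-1.77, adjusted p = 0.00193), Zic5 (-1.71, adjusted p = 0.0108) and Zic2 (-1.57, adjusted p = 0.0478). In Apex1 it was Zic5 (-2.10, adjusted p = 0.089). The Neil1, Neil2 and Apex1 tests share the control libraries.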

How the results depend on the processing

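No called value of the 9 genes changed sign under any alternative run. Numbers of these genes called that moved by over 1.5 times are given below. An adjusted p limit of 0.05 gave 3 in Neil2 EBs in place of 5, and 0 in place of 1 in Apex1 mESCs and in the interactions of Neil2 with EBs and of Apex1 with RA; it took 1 gene each from Neil1 EBs (to 4), Neil2 EBs + RA (6), the change from mESCs to EBs in Neil2 (4) and Apex1 (2) and the interaction of Neil1 with RA (5). Library size alone gave 3 in Neil1 EBs in place of 5, and a fit of all 33 libraries gave 3 in Neil1 and 3 in Neil2 EBs. Without a filter on low counts there were 4 in Apex1 EBs in place of 2, 1 in Apex1 EBs + RA in place of 2, and 0 for the 2 interactions just named. At least 10 counts in every library removed Fgf5 and Otx2 from the fit of 12 groups: the change from mESCs to EBs was then called for 2 genes in control (5 before), 2 in Neil1 (4), 3 in Neil2 (5) and 1 in Apex1 (3), with 0 in Apex1 mESCs, 1 for the interaction of Neil1 and 2 for that of Neil2 with EBs. DESeq2 gave 0 in Apex1 mESCs, where the adjusted p of Fgf5 was NA, 4 in Apex1 EBs, and 1, 4 and 3 for the interactions of Neil1 and Neil2 with EBs and of Apex1 with RA. The interaction of Neil1 with EBs also had 1, Fgf4, by RLE size factors or on autosomes alone. Treating the Apex1 duplicates as 2 libraries gave 3 in mESCs, 7 in EBs and 6 in EBs + RA against controls alone, 6 for the change from mESCs to EBs in Apex1, 1, 2 and 4 for the interactions of Neil1, Neil2 and Apex1 with EBs and 5 for that of Apex1 with RA; summed duplicates with controls alone gave 0 in mESCs and 7 in EBs.

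A replicate block by number gave 3 in Neil2 EBs, where Zic5 (adjusted p = 0.103) and Lin28b (adjusted p = 0.107) were lost, added Zic5 in Neil2 EBs + RA (-1.05, adjusted p = 0.0948), and gave 3, 7 and 6 in Apex1 mESCs, EBs and EBs + RA with duplicates as 2 libraries. It changed no call in Neil1. Elsewhere correlations of same-numbered samples ran from -0.46 to 0.59 between genotypes. With the clone as replicate block across stages 3 calls were gained, given with the stage changes, and no other call changed.

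Leaving out 1 library at a time gave 3 to 5 called genes in Neil1 EBs, 3 to 6 in Neil2 EBs, 2 to 3 in Apex1 EBs, 1 to 3 in Apex1 EBs + RA, 6 to 8 in Neil1 and Neil2 EBs + RA, 0 to 1 in Neil2 and Apex1 mESCs, 3 to 5 for the change from mESCs to EBs in Neil2, and 0 to 1, 0 to 2, 4 to 7 and 0 to 3 for the interactions of Neil1 and of Neil2 with EBs, of Neil2 with RA and of Apex1 with RA. Of single-gene values, 26 lost and 76 gained a call over the other settings and 70 lost and 22 gained one over the left-out libraries, with 1506 and 1225 on the same side. The causes were not tested, apart from the genes removed by the filter. Depth limits Otx2 and Fgf5 in EBs + RA, at 42 counts or fewer per library for Otx2. It also limits Fgf5 in mESCs, at 8 to 16 counts per library in controls, 6 to 13 in Neil1 and 4 to 7 in Neil2. The sizes of its rises to EBs rest on these counts.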
